A study of Mus musculus with 21 samples.

Results

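Newly made RNA was compared with total RNA in NMuMG cells, an epithelial line from mouse mammary gland, that had received transforming growth factor beta 1 (TGF-b1) and the uridine analogue 4-thiouridine (4sU) together. The comparison used the 6 arrays of the TGF-b1 condition, 3 of newly made RNA and 3 of total RNA, out of 21 arrays in all. These cells were grown with 200 µM 4sU and 5 ng/ml TGF-b1 for 2 h, and control NMuMG cells with 200 µM 4sU alone for 2 h, so every culture carried 4sU. For the newly made arrays the 4sU-labelled RNA was captured by mercury-based chromatography, and both kinds of RNA went through a pair of amplification rounds before hybridisation to Affymetrix mouse arrays. Control cells had the same 2 groups of 3 arrays, which also entered the estimate of the spread. The other 9 arrays, of NM18 cells treated with siRNA, were not used. No label says that the replicates came from separate cultures, so the p-values measure the spread between arrays, which may be technical.

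RNA that carries 4sU was transcribed during the labelling time. At steady state, a transcript that is made and destroyed quickly takes a larger share of the newly made fraction than of total RNA, and a long-lived transcript takes a smaller share. Transcripts of regulators are commonly short-lived, and those of metabolic and ribosomal genes long-lived. A transcript whose synthesis has just changed, as TGF-b1 targets can within hours, is not at steady state, and its ratio then reflects both synthesis and decay. The value described here is the level in newly made RNA minus the level in total RNA on the log2 scale. Each level is relative to its own array, so the value ranks genes against each other and is not a half-life.

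Promoter stretches of 6 genes are shown, each chosen because it holds 1 of 2 motifs whose shares are given at the end. The first 3 genes belong to ribosomal and proteasome lists that were mostly lower in newly made RNA, and the last 3 to lists of signalling inhibitors and immediate early genes. They were taken from RefSeq (GRCm38.p6) and are written 5′ to 3′ on the gene's strand, ending at or before the start site. Capitals mark CCGGAAGT or its reverse complement, a core recognised by ETS-family factors, in the first 3. In the last 3 they mark TGACGTCA, the palindrome recognised by CREB and ATF factors. The stretches are Rpl19 at chr11:98026630-98026709 (+), Mrpl27 at chr11:94653696-94653790 (+), Psmd12 at chr11:107479470-107479527 (+), Btg2 at chr1:134079242-134079361 (-), Dusp1 at chr17:26508536-26508655 (-) and Errfi1 at chr4:150854979-150855069 (+).
Rpl19: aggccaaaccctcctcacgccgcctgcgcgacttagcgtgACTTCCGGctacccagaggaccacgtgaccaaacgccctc
Mrpl27: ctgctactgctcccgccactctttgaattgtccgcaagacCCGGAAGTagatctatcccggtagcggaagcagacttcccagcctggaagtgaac
Psmd12: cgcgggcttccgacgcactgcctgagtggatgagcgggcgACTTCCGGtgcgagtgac
Btg2: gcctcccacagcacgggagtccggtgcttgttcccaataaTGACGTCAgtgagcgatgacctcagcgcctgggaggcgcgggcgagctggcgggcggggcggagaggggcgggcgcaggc
Dusp1: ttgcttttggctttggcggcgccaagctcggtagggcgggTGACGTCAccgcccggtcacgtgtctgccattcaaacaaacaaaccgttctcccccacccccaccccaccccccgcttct
Errfi1: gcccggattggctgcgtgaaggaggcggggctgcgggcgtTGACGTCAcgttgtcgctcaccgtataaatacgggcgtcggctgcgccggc

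Across the 18193 genes measured, transcripts of respiratory chain, ribosome, proteasome and metabolic genes were lower in newly made than in total RNA, and many transcripts of transcription factors, signalling inhibitors and mRNA decay factors were higher. With limma and a Benjamini-Hochberg adjusted p under 0.05 over all genes, 3321 genes were called higher in newly made RNA (18.3%) and 4872 lower (26.8%), 45% in all. At least 2-fold differences among the called genes numbered 1482 higher (8.15%) and 2032 lower (11.2%), and at least 4-fold differences 245 higher (1.35%) and 272 lower (1.5%). The median gene lay at -0.08, and 9 in 10 genes lay between -1.50 and 1.33 (log2). The 3 newly made and the 3 total arrays did not overlap for 9976 genes (54.8%).

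The split between higher and lower depends on how arrays are scaled to each other, since the deposited values do not have a common median. Over all probe sets the medians of the TGF-b1 newly made arrays were 5.93 to 5.97 and of the total arrays 5.69 to 5.74. Higher genes made up 40.5% of calls with the values as deposited, 50.3% after centring each array on its median, which moved the median gene to 0.04, and 48.0% after quantile normalization. Gene groups are therefore read against the median of all genes, and their counts against the 18.3% higher and 26.8% lower over all genes. List medians whose sign turned under another scaling are named as such.

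The 12 lowest values came from genes of several kinds. Krt19, a keratin of simple epithelia, read 12.79, 12.55 and 12.73 in the total arrays and 9.22, 8.98 and 8.89 in the newly made arrays. The groups of 3 and 3 arrays lay far apart, and the difference was -3.66 ± 0.17 (SE), the lowest of all genes. Standard errors of differences use the spread within groups over all 12 NMuMG arrays. Aldh1a1, an enzyme that makes retinoic acid, followed at -3.48 ± 0.13. Eef2, the translation elongation factor, read 12.71, 12.76 and 12.75 in total RNA and 10.28, 9.61 and 9.42 in newly made RNA, a difference of -2.97 ± 0.22. The others of the 12 were Akr1c19, the surface protein gene Cd99 (-3.10), the cytochrome P450 gene Cyp2c65, the secreted proteins Hpx, Selenop and Afp, the glutathione transferase Gsta4, Tmem176a and the prefoldin subunit Pfdn5.

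The 12 highest values also came from genes of several kinds. Cdkn1b, which encodes the cyclin-dependent kinase inhibitor p27, read 7.03, 6.43 and 6.61 in total RNA and 10.90, 10.33 and 10.67 in newly made RNA. Every newly made array was above every total array, and the difference was 3.95 ± 0.35, the highest of all genes. Ccnt2, a cyclin of the elongation kinase P-TEFb, read 7.81, 8.36 and 8.01 in total RNA and 11.31, 11.19 and 11.35 in newly made RNA. Its difference was 3.22 ± 0.14, and the other cyclin T gene, Ccnt1, had 2.50 ± 0.13. Tet2, which oxidises 5-methylcytosine in DNA, had 3.02 ± 0.13. The others of the 12 were Rbm4b (3.43), the transcriptional repressor Bach2, N4bp2l2 (3.13), the FET-family RNA-binding protein Taf15, the paraspeckle protein Sfpq, Spin4 (2.92), Cep295 (2.91), Fam126b (2.91) and Gdap10 (2.90).

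Probe sets of the same gene did not always give the same difference. Of 9010 genes with 2 or more probe sets, 3997 had 2 or more called, and of these 1686 were higher in all called probe sets, 1347 lower in all, and 964 went both ways. Sfpq had 6 probe sets, of which 2 were higher, at 3.05 and 2.22, and 4 lower, from -0.61 to -1.31. Fn1, the extracellular matrix protein fibronectin, lay at -0.91 by its brighter probe set and at 2.38 by its dimmer one. The second probe set of Cdkn1b had 1.34, and 4 of the 5 probe sets of Ccnt2 had 1.65 to 3.22 while the last, at 0.07, was not called. Under the mean of all probe sets, 57 of the 188 called genes named by rule moved by more than 1.5 times, and 6 turned sign. Sfpq then had 0.25 and was not called, and examples below that shrank were Idh2 (-1.36), Inhba (1.16), Klf9 (1.24), Dcp2 (0.99), Fosl2 (0.80), Skil (0.79), Tyms (0.73), Chd1 (0.92), Kat6a (0.77), Fdps (-1.41) and Hsd17b7 (0.89), with Eef2 at -1.52 and Ccnt2 at 2.05. Which part of each transcript a probe set reads was not analysed here. The values below are those of the probe set with the highest mean level, which can differ from other probe sets of the gene.

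**Figure D1:**
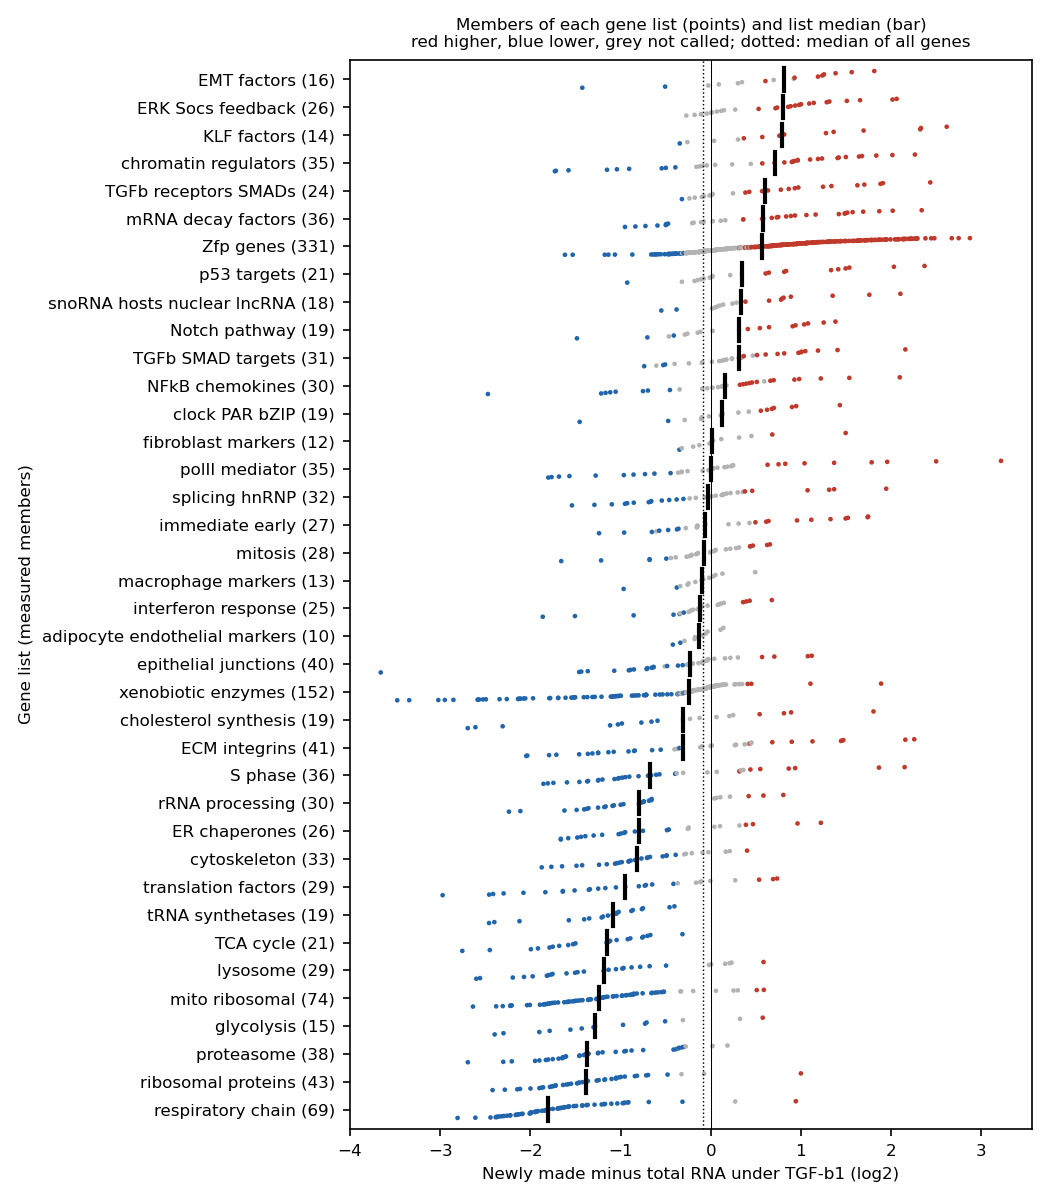
Each point is a gene's level in newly made minus total RNA under TGF-b1 (log2, horizontal axis), in rows by gene list with the number of measured members, black bars at list medians and a dotted line at the median of all genes. Respiratory chain genes sit lowest, with a median of -1.81, and ERK and Socs feedback genes and EMT factors lie near the top, with medians of 0.80 and 0.81.

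The machinery of oxidative metabolism was low almost throughout. Of 69 measured genes of the respiratory chain, the inner-membrane complexes that make ATP, 67 were called lower and 1 higher, with a median difference of -1.81, beside 26.8% lower and a median of -0.08 over all genes. Atp5e, a small subunit of ATP synthase, read 10.10, 10.05 and 10.29 in total RNA and 7.22, 7.53 and 7.27 in newly made RNA, a difference of -2.81 ± 0.16. Cox7c, a subunit of cytochrome c oxidase, was the exception at 0.94 ± 0.15. All 21 measured genes of the tricarboxylic acid cycle and pyruvate dehydrogenase were lower, with a median of -1.16, from Idh2 at -2.75 ± 0.14 to Sdha at -0.31. In glycolysis 12 of 15 were lower and 1 higher. Aldoa, which splits fructose bisphosphate, had -2.40 ± 0.12, whereas Hk2, the inducible hexokinase, had 0.58.

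Genes that build and serve the ribosome were low as well. Of 43 cytosolic ribosomal protein genes 40 were lower and 1 higher, with a median of -1.39, beside 26.8% and 18.3% over all genes. Rpl19, whose promoter is shown above, read 13.41, 13.39 and 13.58 in total RNA and 11.50, 11.60 and 11.28 in newly made RNA, a difference of -2.0 ± 0.16. Rpl12 was the called exception at 1.00 ± 0.15. Ribosomal protein genes have near-identical copies in the genome, and whether probe sets also read those was not tested. Of 74 mitochondrial ribosomal protein genes 66 were lower and 2 higher, with a median of -1.24, and Mrpl27 had -1.73 ± 0.18. All 19 aminoacyl-tRNA synthetases were lower, with a median of -1.09, and 20 of 29 translation factors were lower and 3 higher. Factors that process ribosomal RNA were lower in 23 of 30 cases and higher in 3, with the assembly factors Nolc1 at -2.11 and Pes1 at -1.62 and the helicase Ddx21 at 0.81. Bop1, which acts in large-subunit assembly, had -2.24 ± 0.13 by its brighter probe set and 1.57 by the other, both called, and -0.33 by their mean.

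Protein-degrading and secretory-pathway genes had similar values. Of 38 proteasome genes 34 were lower and 0 higher, with a median of -1.37. Psmd8, a subunit of the regulatory particle, read 10.76, 10.44 and 10.40 in total RNA and 7.83, 7.81 and 7.89 in newly made RNA, a difference of -2.69 ± 0.19, and Psmd12 had -1.80 ± 0.17. Lysosomal genes were lower in 23 of 29 cases and higher in 1, with beta-galactosidase Glb1 at -2.60 and the cholesterol transporter Npc1 at 0.59. Among 26 chaperones and stress genes of the endoplasmic reticulum 16 were lower and 4 higher, beside 26.8% and 18.3% over all genes. The folding enzyme Ppib had -1.66, while Dnajb9 (1.22), Sel1l (0.96), Ero1a (0.47) and the transcription factor Xbp1 (0.39) were the 4 that were higher.

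Structural genes of the epithelial cell were mostly low or not called. Of 40 genes of epithelial junctions and keratins 17 were lower and 4 higher, with a median of -0.23. E-cadherin (Cdh1), the main adhesion molecule of epithelial junctions, read 11.71, 11.61 and 11.22 in total RNA and 10.60, 10.49 and 10.24 in newly made RNA, a difference of -1.07 ± 0.14. Krt8 had -0.85 ± 0.13, and Cldn12 (1.12) and Pkp1 (1.08) were the highest of the list. In the cytoskeleton list 25 of 33 were lower and 1 higher, and Actb, read near the top of the scale in both kinds of RNA, had -0.09 ± 0.13. Matrix and integrin genes went both ways, with 17 of 41 lower and 9 higher, beside 26.8% and 18.3% over all genes. Col6a1 (-2.05) and the intermediate filament gene Vim (-1.71 ± 0.24) were low, while Timp3, an inhibitor of matrix proteases, had 2.26, Itgb6 2.16 and the collagen cross-linking enzyme Lox 1.46. Cholesterol synthesis genes were split, with 9 of 19 lower, led by Ebp (-2.69) and Fdps (-2.61), and 4 higher, Hsd17b7 (1.80), the feedback protein Insig1 (0.89), Hmgcs1 (0.81) and Sc5d (0.54).

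Genes of the cytochrome P450, glutathione transferase, glucuronosyltransferase, aldo-keto reductase, aldehyde dehydrogenase and sulfotransferase families were grouped by name after their values were seen. This list held 152 of the 18193 genes measured. The list had 61 members lower and 4 higher, beside 26.8% and 18.3% over all genes, with a median of -0.24. Aldh1a1, Akr1c19 (-3.34), Cyp2c65 (-3.02), Gsta4 (-2.95) and Aldh2 (-2.85) were its lowest. Cyp1b1, a cytochrome P450 induced through the aryl hydrocarbon receptor, had 1.89 and was its highest.

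Inhibitors of growth factor and cytokine signalling stood at the other end. Of 26 genes of the dual-specificity phosphatases, Sprouty and Spred proteins, Socs proteins and Pim kinases, which act as feedback on ERK and JAK-STAT signalling, 16 were higher and 0 lower, with a median of 0.80, beside 18.3% higher over all genes. Socs5 read 8.99, 9.86 and 9.73 in total RNA and 10.96, 11.91 and 11.90 in newly made RNA, a difference of 2.06 ± 0.30, and its array 1 was the lowest of each group. Socs4 had 2.02 ± 0.16 and Dusp4, a nuclear ERK phosphatase, 1.66 ± 0.14. Dusp1, whose promoter is shown above, read 10.70, 10.60 and 10.59 in total RNA and 11.53, 11.39 and 11.54 in newly made RNA, a difference of 0.86 ± 0.16. Errfi1, an inhibitor of the EGF receptor, had 1.29 ± 0.12. The 10 members that were not called lay between -0.27 (Dusp2) and 0.27 (Socs6).

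**Figure D2:**
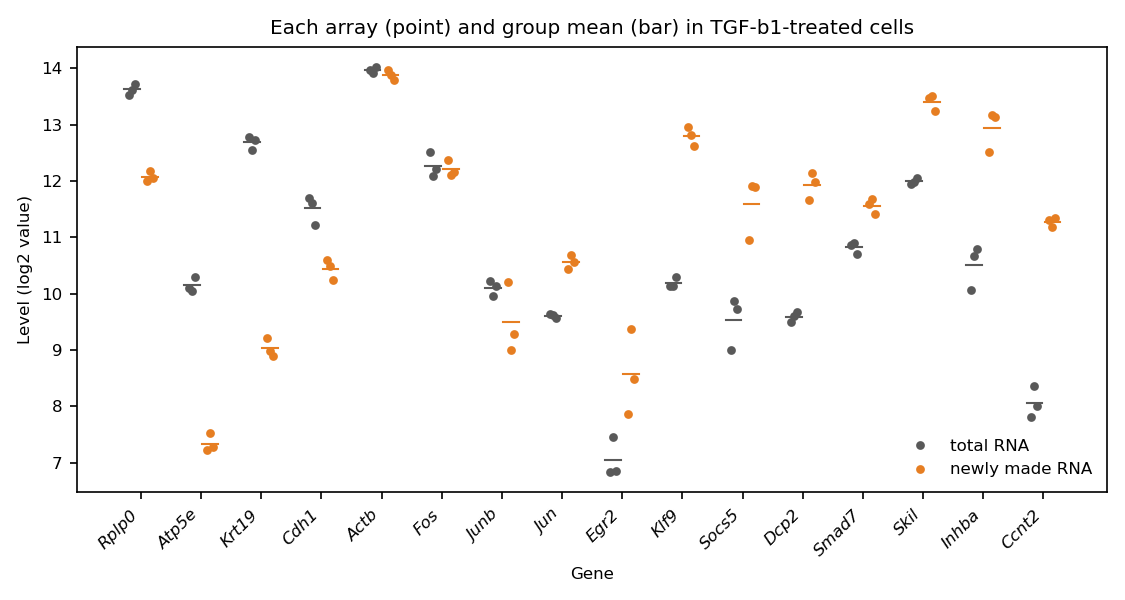
Levels (log2 value, vertical axis) of 16 genes in each TGF-b1-treated array, with grey for total and orange for newly made RNA, points for the 3 arrays and bars for group means. Rplp0, Atp5e, Krt19 and Cdh1 are lower in all newly made arrays, Actb and Fos overlap, and Klf9, Socs5, Dcp2, Skil, Inhba and Ccnt2 are higher in all newly made arrays.

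Members of several transcription factor families were higher as well. Of 14 Krüppel-like factors 10 were higher and 1 lower, with a median of 0.79. Klf9, a target of steroid and thyroid hormone receptors, read 10.13, 10.14 and 10.29 in total RNA and 12.97, 12.82 and 12.63 in newly made RNA, a difference of 2.62 ± 0.16. Klf7 had 2.33, Klf6 2.32 ± 0.13 and Klf10, an early TGF-b gene, 0.81. Among 331 genes named Zfp, most of them zinc finger proteins, which were grouped after their values were seen, 187 were higher and 32 lower, with a median of 0.57. Chromatin regulators split by member, with 19 of 35 higher and 9 lower, beside 18.3% and 26.8% over all genes. The demethylase Kdm6a (2.26 ± 0.16), the remodeller Chd1 (2.01) and the acetyltransferase Kat6a (1.84) were the highest, and Kat2a (-1.73), Ehmt2 (-1.72) and the remodeller Smarca4 (-1.58) the lowest. The histone deacetylases Hdac1, Hdac2, Hdac3 and Hdac5 were all lower, at -0.54 to -1.15, and Hdac4 was higher at 0.96.

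The enzymes of transcription and RNA processing did not move as blocks. Of 35 RNA polymerase II, Mediator and elongation genes 9 were higher and 10 lower, beside 18.3% and 26.8% over all genes. Core polymerase subunits were among the low ones (Polr2f -1.80, Polr2i -1.76, Polr2e -1.68, Polr2j -1.57), and the kinase module and elongation genes among the high ones (Med13 1.96, Med13l 1.78, Aff4 1.04, with the 2 cyclin T genes given above). Splicing factors and hnRNP proteins had 6 of 32 higher and 13 lower, with a median of -0.03 that turned to 0.09 under median centring and 0.18 under quantile normalization. Snrpb (-1.54) and U2af1 (-1.29) were the lowest and Hnrnpa1 (1.95), Clk1 (1.37) and Clk4 (1.31) the highest, the last pair being kinases of splicing factors. Of 18 host genes of small nucleolar RNAs and nuclear long non-coding RNAs 9 were higher and 2 lower, with the imprinted nuclear transcript Kcnq1ot1 at 2.10 ± 0.19 and Neat1, the scaffold of paraspeckles, at 0.79. Malat1 (0.24) and Gas5 (0.29) were not called by their brightest probe sets. Under the mean of all probe sets both were called higher, at 0.93 and 0.67.

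Factors that destroy mRNA were more often higher than lower. Of 36 genes of deadenylation, decapping, nonsense-mediated decay and AU-rich element binding 20 were higher and 8 lower, beside 18.3% and 26.8% over all genes. Their median was 0.58, and the lower count was 4 under median centring. Dcp2, the decapping enzyme, read 9.49, 9.61 and 9.68 in total RNA and 11.66, 12.14 and 11.99 in newly made RNA, a difference of 2.34 ± 0.14. Its activator Dcp1a had 1.87, and Rc3h1, which encodes Roquin, 2.02. Btg2, which recruits the CCR4-NOT deadenylase and is also an immediate early and p53 target gene, read 8.43, 8.04 and 8.09 in total RNA and 9.96, 9.44 and 9.64 in newly made RNA, a difference of 1.50 ± 0.18. Zfp36l1 had 1.42 ± 0.12, whereas Zfp36, which encodes tristetraprolin, was not called at 0.02 ± 0.12. Exosc2 (-0.84), a subunit of the exosome, and the mRNA-stabilising protein Elavl1 (-0.72) were among those lower. Hnrnpd, at -0.95 by its brightest probe set, had 1.30 and 1.06 by its 2 dimmer ones.

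Immediate early genes, which are induced within minutes of a stimulus and whose mRNAs are known to be unstable, did not form one group. Of 27 measured members 10 were higher and 7 lower, beside 18.3% and 26.8% over all genes. The median of -0.06 turned to 0.06 under median centring and to 0.19 under quantile normalization. Fosl2, an AP-1 subunit, read 10.98, 11.03 and 10.76 in total RNA and 12.66, 12.67 and 12.67 in newly made RNA, a difference of 1.75 ± 0.11. Ptgs2, which encodes cyclooxygenase-2, had 1.74 ± 0.14, Egr2 1.52 ± 0.36 and Jun 0.96 ± 0.12. Fos read 12.52, 12.10 and 12.22 in total RNA and 12.37, 12.11 and 12.17 in newly made RNA, so that its arrays overlapped and its difference was -0.06 ± 0.19. Ier2 had -1.24 ± 0.19 and Fosl1 -0.96, both lower. Junb read 10.21, 9.00 and 9.28 in newly made RNA against 10.22, 9.96 and 10.13 in total RNA, and with array 1 standing above the other newly made arrays it was not called (-0.60 ± 0.28, adjusted p = 0.0983). Myc was not called either, at -0.28 ± 0.21.

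Among 30 NF-kB pathway genes and chemokines 13 were higher and 8 lower, beside 18.3% and 26.8% over all genes. Il6 read 4.95, 5.10 and 4.84 in total RNA and 6.32, 7.65 and 7.22 in newly made RNA, a difference of 2.10 ± 0.26, and its total level was below that of the median gene. Nfkbiz (1.54), Cxcl1 (1.22) and the ubiquitin-editing enzyme Tnfaip3 (0.98) were also higher, and the inhibitor Nfkbia had 0.46 ± 0.13. The NF-kB subunits went both ways, with Rela (-0.75) and Nfkb2 (-1.05) lower, Rel (0.93) higher and Relb (-0.35) not called. Il33 (-2.47 ± 0.11), an epithelial alarm cytokine, was lower. Of 21 p53 target genes 10 were higher and 1 lower, led by Trp53inp1 (2.37), Pmaip1 (2.03) and Zmat3 (1.54), with Mdm2 at 1.41 ± 0.17. In the Notch pathway 9 of 19 were higher, among them Rbpj (1.38) and Nrarp (1.25), and 3 lower, with Hes6 at -1.48. Among clock genes 7 of 19 were higher, with Clock at 1.43, and 2 lower, with Dbp at -1.45.

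Cell cycle genes were described by phase. Of 36 S-phase genes 22 were lower and 8 higher, with a median of -0.68. The replication genes Gins2 (-1.86), Pola1 (-1.81) and Pcna (-1.46) were low, while Tyms, thymidylate synthase, had 2.15 ± 0.17 and Ccne2, an E-type cyclin, 1.87. Of 28 mitosis genes 5 were lower and 4 higher, no more than the 26.8% and 18.3% over all genes, with a median of -0.07 that turned to 0.05 under median centring and 0.02 under quantile normalization. Ccnb2 (-1.66) and Kif20a (-1.22) were the lowest. For 25 interferon response genes, 4 higher and 6 lower, again no more than the shares over all genes, the median of -0.12 turned above 0 under median centring.

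Components of the TGF-b pathway were mostly higher in newly made RNA. Of 24 ligands, receptors, SMADs and cofactors 15 were higher and 1 lower, with a median of 0.60, beside 18.3% and 26.8% over all genes. Among ligands Inhba, the activin A subunit, read 10.07, 10.67 and 10.80 in total RNA and 12.52, 13.18 and 13.14 in newly made RNA, a difference of 2.43 ± 0.20. Tgfb3 (0.97) and Tgfb2 (0.64) were higher, Tgfb1 was not called (-0.01), and Bmp4 was lower (-0.32). The type I receptor gene Tgfbr1 read 12.23, 12.01 and 11.55 in total RNA and 13.37, 13.25 and 13.19 in newly made RNA, a difference of 1.34 ± 0.16. The type II receptor gene Tgfbr2 was not called, at -0.24 ± 0.27, with newly made levels of 9.92, 11.05 and 10.93. The receptors of activins and bone morphogenetic proteins Acvr2a (1.88 ± 0.14), Bmpr2 (1.70), Bmpr1a (1.63) and Acvr2b (1.25) were higher. Of the SMADs, which carry the signal to the nucleus, Smad5 (1.91 ± 0.17), Smad1 (0.93), Smad3 (0.78 ± 0.12) and the shared partner Smad4 (0.43) were higher and Smad2 was not called (-0.07 ± 0.17).

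Of 31 early targets of TGF-b and SMADs, measured here during their response, 13 were higher and 3 lower. Over all genes the shares were 18.3% and 26.8%, and the median of the list was 0.31. Skil, a repressor of SMAD transcription, read 11.96, 11.99 and 12.05 in total RNA and 13.47, 13.51 and 13.24 in newly made RNA, a difference of 1.41 ± 0.12. Smad7, the inhibitory SMAD, read 10.86, 10.91 and 10.70 in total RNA and 11.60, 11.69 and 11.41 in newly made RNA, a difference of 0.74 ± 0.11. Itgb6, a subunit of an integrin that activates latent TGF-b, was the highest of the list at 2.16 ± 0.28, with array 1 highest in newly made RNA (12.29, 11.16 and 11.48). Hmga2 (1.19), the cytokine Lif (1.05), Ltbp2 (1.01 ± 0.18), Pim1 (1.00), Spsb1 (0.97), Klf10 (0.81), the cell cycle inhibitor Cdkn1a (0.61 ± 0.12), Id2 (0.51), Cdkn2b (0.37) and Smurf1 (0.34) were the other members called higher. Foxq1, a forkhead factor, had 0.35 and was not called, as were Il11 (0.47), Nfatc2 (0.31), Id3 (0.24), Ccn2 (0.24), Bambi (0.17), Ski (0.15), Pmepa1 (0.13), Tgif1 (0.09), Ccn1 (0.01), Tgfb1i1 (-0.09), Bhlhe40 (-0.10), Smad6 (-0.24), Id1 (-0.40) and Junb. The 3 lower were the latent TGF-b binding protein Ltbp3 (-0.74 ± 0.15), the sphingosine kinase Sphk1 (-0.53) and Snai1 (-0.51 ± 0.17).

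Some of these calls, and some of the missing ones, rest on single choices. Under the mean of all probe sets of a gene Ltbp3 had 0.47, Sphk1 0.05 and Smurf1 -0.13, each with the sign turned. Ccn1 was called higher under that mean, at 0.64, and Ccn2 was called in 2 of 14 alternative settings. Cdkn2b lost its call when any 1 of the 6 TGF-b1 arrays was left out, at 0.33 to 0.41. Smurf1 lost it without any 1 of 5 of them, total array 2 being the exception, at 0.28 to 0.38. Sphk1 lost it without newly made array 3 (-0.43) or total array 1 (-0.46), Id2 without total array 3 (0.32), and Snai1 without newly made array 1 (-0.39), newly made array 3 (-0.49) or total array 3 (-0.32). Snai1 also lost its call under median centring (-0.39) and quantile normalization (-0.41), and Sphk1 under quantile normalization (-0.40). The comparison of TGF-b1 with control cells uses the same TGF-b1 arrays, so its values are given side by side. For Skil TGF-b1 minus control was 0.76 in newly made and 1.13 in total RNA, and for Smad7 it was 0.99 and 1.25. For Ltbp2 it was 1.40 and 0.47, and its newly made minus total value was 0.07 ± 0.18 in control cells. The difference between the conditions was not called for Ltbp2 (adjusted p = 0.631) or for any other member of the list.

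**Figure D3:**
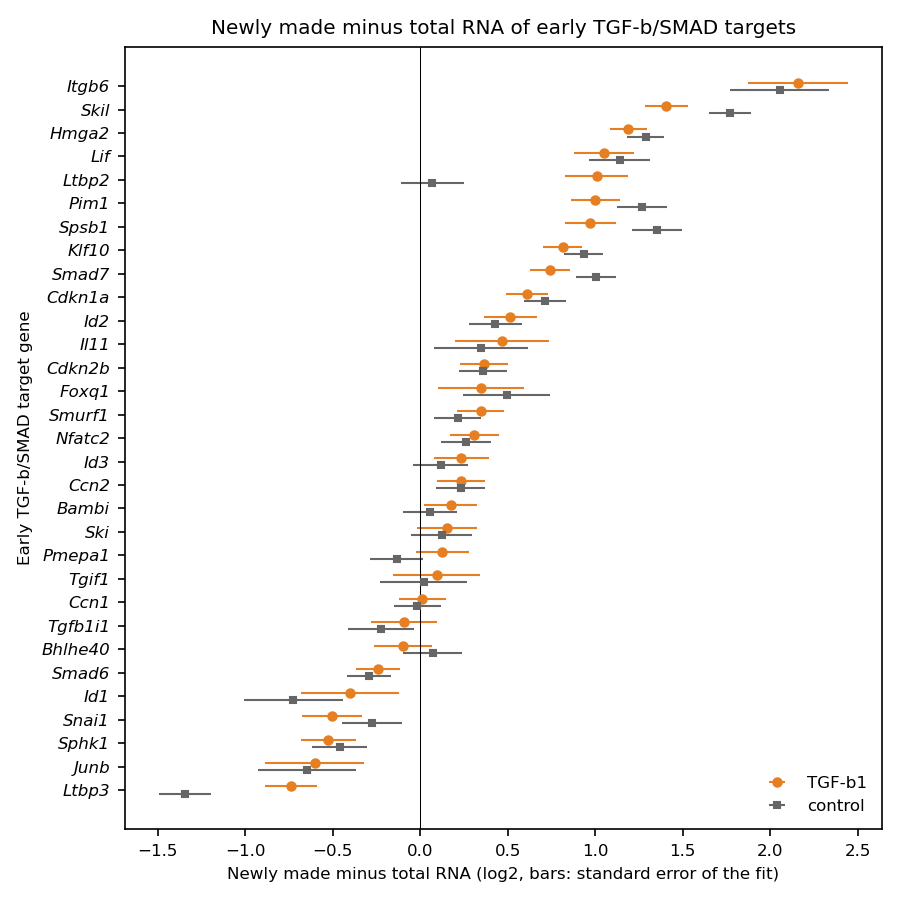
Newly made minus total RNA (log2, horizontal axis; bars are standard errors of the fit over 3 and 3 arrays) for the 31 measured early TGF-b and SMAD targets, with orange circles for TGF-b1 and grey squares for control cells. Most genes have nearly the same value in both conditions, and Ltbp2, at 1.01 with TGF-b1 and 0.07 without, is the widest apart.

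Regulators of the epithelial to mesenchymal transition were mostly higher or not called. Of 16 measured factors 8 were higher, 2 lower and 6 not called, beside 18.3% higher and 26.8% lower over all genes. Their median was 0.81. Zeb2, a repressor of E-cadherin, read 7.72, 7.97 and 7.92 in total RNA and 9.68, 9.92 and 9.46 in newly made RNA, a difference of 1.81 ± 0.13. Tcf4 had 1.56, Zeb1 1.38 ± 0.18, Ets1 1.26, Snai2 1.24 ± 0.11, Sox4 0.93 and Sox9 0.61. The related repressor gene Snai1 was called lower only in some settings, as given above, and Tcf3, a basic helix-loop-helix factor, was the lowest at -1.42 ± 0.12. Twist1 (0.70) and Prrx1 (0.92) were not called.

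Control cells had nearly the same values. Newly made minus total RNA was called higher for 3131 genes (17.2%) and lower for 4877 (26.8%) in control cells, and across the 18193 genes the 2 differences had a Pearson correlation of 0.969 and a Spearman correlation of 0.910. The differences themselves come from separate arrays, but they share probe sets, and genes are not independent replicates. The calls also share the estimate of each gene's spread, which was taken from all NMuMG arrays. The overlap of calls is therefore not a comparison of independent tests in the conditions. Called in the same direction in both were 2907 higher genes, which is 87.5% of those higher with TGF-b1 and 92.8% of those higher in control cells. The 4268 called lower in both were 87.6% and 87.5% of the respective lists. Only 32 genes had differences at least 1 apart. The 4 genes called in opposite directions were Ccl20, 3110009F21Rik, Epb41l4b and Smco3, which were picked out after their values were seen. Smco3 had 0.28 with TGF-b1 and -0.28 in control cells, and this difference between conditions was not called (adjusted p = 0.641).

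The test of the difference between conditions called 12 genes (0.066%), 10 with a lower value under TGF-b1 (0.055%) and 2 with a higher one (0.011%). An unadjusted p under 0.05 was found for 532 of the 18193 genes, less than a share of 0.05. Leaving out 1 array at a time gave 4 to 17 lower and 0 to 7 higher. Arrays with the same number deviated together within each kind of RNA, at correlations of 0.73, 0.34 and 0.46 for newly made and 0.41, 0.12 and 0.21 for total RNA. Differently numbered newly made arrays could correlate as well, with 0.35 for TGF-b1 array 2 and control array 3. With the number within each kind of RNA as a block, a choice made after seeing the data, 52 genes were lower and 34 higher. The planned replicate block gave 28 lower and 11 higher. Vnn1, an enzyme that releases cysteamine, read 12.22, 12.11 and 12.02 in total RNA and 9.30, 9.26 and 9.17 in newly made RNA with TGF-b1. Its newly made minus total value was -2.87 ± 0.12 with TGF-b1 and -1.11 ± 0.12 without, and the difference between them was -1.75 ± 0.17 (adjusted p = 0.000274). TGF-b1 minus control was -1.96 for Vnn1 in newly made and -0.21 in total RNA. Cyp3a13, a cytochrome P450, read 6.97, 6.87 and 6.54 in total RNA and 4.89, 5.20 and 5.21 in newly made RNA, with -1.69 ± 0.13 under TGF-b1 and 0.19 ± 0.13 in control cells. For Ccl20, a chemokine for CCR6-bearing lymphocytes, the total arrays read 8.92, 8.57 and 8.45 and the newly made arrays 7.72, 7.40 and 7.48. Its value was -1.11 ± 0.15 with TGF-b1 and 0.44 ± 0.15 without, called in opposite directions.

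The other genes with a lower value under TGF-b1 were the aldo-keto reductases Akr1c14 (-2.57 with TGF-b1, -0.83 without) and Akr1c19 (-3.34 and -1.62), the oxygen-sensing hydroxylase Egln3 (-1.64 and -0.38), Aldh1a1 (-3.48 and -2.26), the tetraspanin Tspan8 (-1.88 and -0.74), Il33 (-2.47 and -1.47) and 3110009F21Rik (-0.88 and 0.67). Among these 10, Cyp3a13, Akr1c14, Akr1c19 and Aldh1a1 belong to the enzyme families grouped above, a list drawn up after its values were seen. Ctla2a, an inhibitor of cathepsins, had -0.21 ± 0.15 with TGF-b1 and -1.55 ± 0.15 without, and Epb41l4b, a FERM-domain protein, had 0.32 ± 0.11 and -0.69 ± 0.11. TGF-b1 minus control was 2.07 in newly made and 0.73 in total RNA for Ctla2a, and 2.10 and 1.09 for Epb41l4b. Across the 18 or 19 alternatives run for each, Vnn1, Cyp3a13 and Ccl20 kept their calls, with adjusted p up to 0.00247, 0.00247 and 0.0368. Egln3 lost its call in 1 alternative, and the rest lost theirs in 5 (Il33) to 9 (Epb41l4b). Under the mean of all probe sets the value of Epb41l4b with TGF-b1 was 0.06 and was not called.

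**Figure D4:**
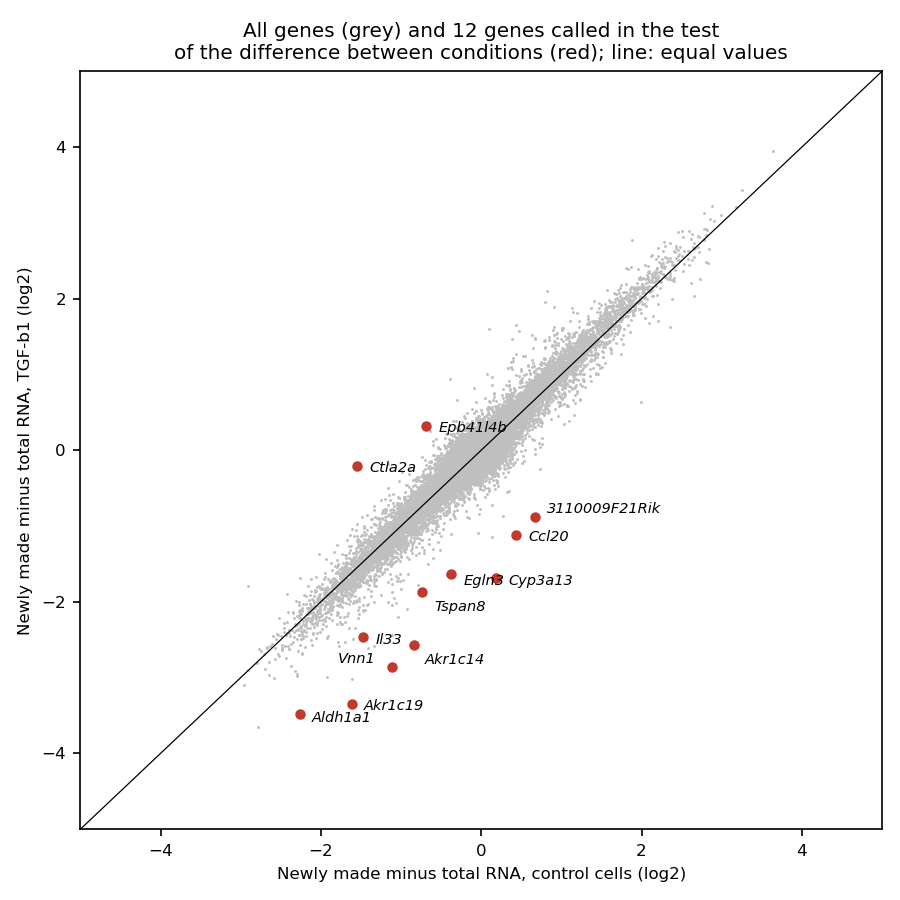
Newly made minus total RNA (log2) in control cells (horizontal axis) against TGF-b1-treated cells (vertical axis), with grey points for all 18193 genes, red points for the 12 called in the test of the difference between conditions and a line of equal values. The cloud follows the line (Pearson correlation 0.969), with Vnn1, Cyp3a13 and Ccl20 below it and Ctla2a and Epb41l4b above it.

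The value varied with expression level and with gene length. Genes were put in 5 equal classes by their level in control total RNA, arrays that the difference itself does not use. These arrays read the same probe sets as the total arrays subtracted here, so class and value are not independent. The median difference was -0.04, -0.07, -0.07, -0.13 and -0.44 from the lowest to the highest class. Calls were 4.31% higher and 4.51% lower in the lowest class and 22.6% and 52.3% in the highest, so a missing call says little for weakly expressed genes. The span of the gene in RefSeq, introns included, had a median of 35.8 kb for genes called higher and 16.4 kb for those called lower, against 20.3 kb for all genes. From the shortest to the longest of 5 equal classes of protein-coding genes by span, the share called higher went 7.23%, 13.8%, 19.8%, 25.9% and 28.7%, and the share called lower was 33.7% in the shortest and 18.8% in the longest. Within the highest class by level, the median went from -1.14 for the shortest genes to 0.15 for the longest. What length and level contribute to the gene groups above was not tested.

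**Figure D5:**
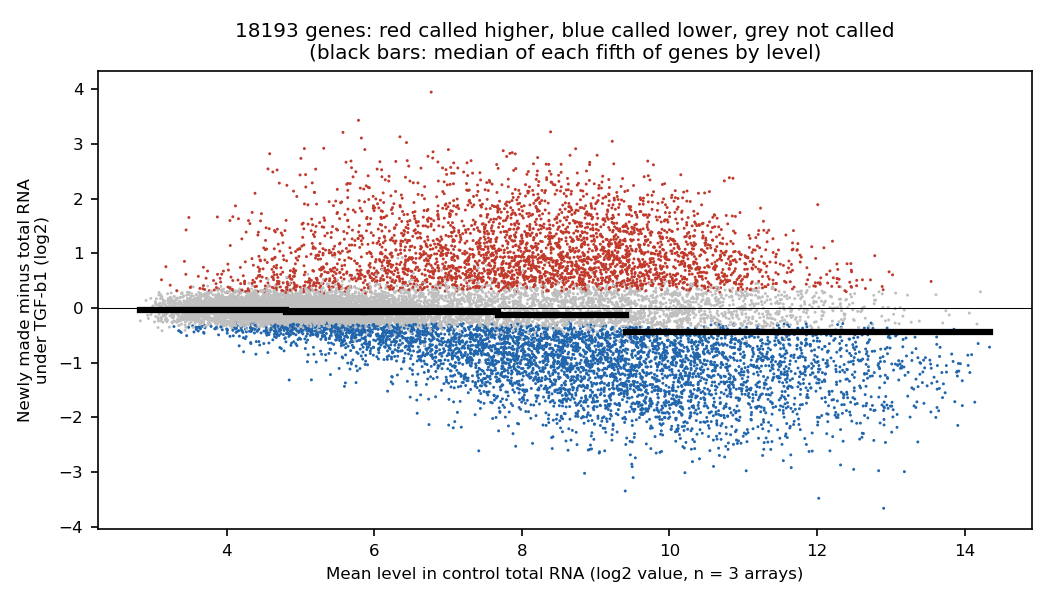
Newly made minus total RNA under TGF-b1 (log2, vertical axis) against the mean level in control total RNA (log2 value of 3 arrays, horizontal axis) for 18193 genes, red called higher, blue called lower and grey not called, with black bars at the median of each of 5 equal classes of genes by level. The median goes from -0.04 in the lowest class to -0.44 in the highest.

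Control probe sets moved with the kind of RNA. The level at the 3′ end minus that at the 5′ end of Actb was 2.26 ± 0.59 (SD, 3 arrays) in TGF-b1 newly made and 1.50 ± 0.10 in total RNA, and that of Gapdh 2.94 ± 0.39 and 1.89 ± 0.03. The Gapdh control probe sets differed by -1.35 at the 3′ end, -2.10 in the middle and -2.39 at the 5′ end. The 3 probe sets of 18S ribosomal RNA were lower in newly made RNA, by -0.78, -1.62 and -1.78, and those of the B1 and B2 repeats, elements found in many introns, higher by 1.69, 0.82 and 0.31. The 27 probe sets of bacterial polyA control transcripts were all lower, by -0.013 to -1.43 with a median of -0.57, a span that holds the negative list medians given above apart from that of the respiratory chain. The 18 probe sets of hybridisation controls were between 0.073 and 0.42. The part of spiked RNA amounts, of amplification and of intron-bearing precursor RNA in the differences of single genes was not tested. All 8 epithelial markers were above the level of the median gene in total RNA, with Krt8 at 14.1. Of 8 macrophage and leukocyte markers 2 were above it, Cd14 at 11.2 and Laptm5 at 10.4, while Ptprc, which defines leukocytes, read 3.94. Of 9 fibroblast markers 1 was above it, Pdgfrb at 7.64, and 0 of 5 adipocyte and endothelial ones were. In bulk RNA fewer cells of a type and less RNA per cell cannot be told apart.

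The promoter motifs differed in how often they occurred. Windows of 250 bases before to 50 after the start site were found for 14368 of the genes, 18009 windows in all, and were searched on both strands. CCGGAAGT occurred in 5.86% of all windows, in 7.34% of those of genes called higher and in 8.62% of those called lower. Its share was 20.5% of the windows of ribosomal protein genes, 16.9% for mitochondrial ribosomal proteins, 20.6% for the proteasome and 20.7% for ribosomal RNA processing, but 6.35% for the respiratory chain, the list with the lowest median. It was also 20.9% for splicing factors and 21.2% for polymerase II and Mediator, lists that were not low as a whole. TGACGTCA occurred in 2.50% of all windows, 3.56% of those called higher and 2.78% of those called lower. It was in 3 of 23 windows of the ERK and Socs feedback genes. Its share was also 16.7% (4 of 24 windows) for the tricarboxylic acid cycle and 6.35% for the respiratory chain, lists that were low. TGACTCA, the AP-1 core, was in 4.52% of all windows, 3.12% of those called higher and 4.47% of those called lower. TATAAA was in 9.76%, 7.40% and 7.61%. GTCTAGAC, a SMAD palindrome, was in 0.244% of all windows. These are matches of letters and were not tested.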

How the data were processed

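The deposited table holds, per probe set and array, log2 expression values made by the authors. That they are log2 was read from their range (2.34 to 14.8), since no label says so, and background correction, summarisation and scaling are not given in the sources used here. The submitters' processing notes name affy 1.18.2 without a role. Of 45101 probe sets 34945 had 1 gene symbol, and the brightest over the 12 NMuMG arrays stood for its gene. limma 3.58.1 in R 4.3.3, tested on simulated data, was fitted once over the 4 NMuMG groups of 3 arrays, two-sided, with Benjamini-Hochberg adjustment over all genes. A value after ± is the standard error of a log2 difference or the SD of a level.

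Named genes were a fixed set, the 12 largest differences each way, 4 members per list by p, the interaction calls and all SMAD targets, and other members were named after their values were seen. The members and the 36 lists (1011 of 1113 names measured) were chosen with earlier results of these data known. Alternatives were median centring, quantile normalization, a level filter, the mean of all probe sets, only the arrays compared, a 2-fold minimum, a replicate block and leaving out each array. The number of arrays limits the precision, and an unlabelled control of the 4sU capture was not analysed here. Same-numbered newly made and total arrays correlated at 0.20, 0.21 and 0.01 in their deviations and were not paired.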

Additional observations from a re-analysis of the deposited data

Results flagged for a closer look

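For 12 genes the newly made minus total value differed between TGF-b1-treated and control cells by limma's test of that difference (adjusted p under 0.05 over 18193 genes). TGF-b1 minus control of that value was -1.88 ± 0.19 for Cyp3a13, -1.75 ± 0.17 for Vnn1, -1.73 ± 0.27 for Akr1c14, -1.73 ± 0.26 for Akr1c19 and -1.55 ± 0.21 for Ccl20. It was -1.55 ± 0.25 for 3110009F21Rik, -1.26 ± 0.17 for Egln3, -1.21 ± 0.18 for Aldh1a1, -1.14 ± 0.18 for Tspan8 and -1.0 ± 0.15 for Il33. It was 1.01 ± 0.15 for Epb41l4b and 1.34 ± 0.21 for Ctla2a. The rule for single outlying samples was not applied, since it needs groups of at least 4. Newly made arrays numbered 1 deviated most from their group means (SD over genes 0.196 with TGF-b1 and 0.218 in control cells).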

How the results depend on the processing

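Counts of genes called higher and lower under TGF-b1 (3321 and 4872) stayed within 1.5 times under each alternative except the test against a 2-fold minimum (722 and 1010); with 1 array left out they were 2998 to 3353 and 4415 to 4599, and in control cells 2825 to 3295 and 4406 to 4753. Of the calls under TGF-b1, 86.7% were called the same way under the mean of all probe sets, with 135 called the other way, and 89.1% under median centring. Calls of the difference between conditions (2 higher, 10 lower) were the least stable: 19 lower under quantile normalization, 11 higher and 28 lower with a replicate block, and 0 to 7 higher and 4 to 17 lower with 1 array left out. They were 0 and 4 without TGF-b1 total array 1 or 2, 7 and 10 without TGF-b1 newly made array 1, and 3 and 17 without control newly made array 1. Leaving out any other array gave 0 to 2 higher and 4 to 10 lower. Chosen after seeing the data, a replicate block within each kind of RNA gave 34 and 52, and leaving out both newly made arrays numbered 1 gave 7 and 17; the cause was not tested.

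With the mean of all probe sets the sign turned for Fn1 (0.73), Actb (0.38), Csnk1d (-0.17), Hnrnpd (0.47), Ltbp3 (0.47), Sphk1 (0.047) and Smurf1 (-0.13), whose probe sets differ. List medians that turned were those of immediate early genes (0.060 under median centring, 0.19 under quantile normalization), splicing (0.086 and 0.18), mitosis (0.046 and 0.023), and under centring interferon response (0.0015) and macrophage markers (0.019). Under the mean of all probe sets those of immediate early (0.063), splicing (0.092), mitosis (0.13) and fibroblast marker genes (-0.037) turned, and without both newly made arrays numbered 1 those of splicing (0.0054) and mitosis (0.013). Of the results of named genes under alternatives 2860 kept direction and side of the threshold, 117 lost the call, 32 gained one and 7 reversed. For dim genes, signal near background limits what can be called.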
